A study of Mus musculus with 36 samples.

Results

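The 50 genes described here act in the S, G2 and mitotic phases of the cell cycle. They were chosen by name as well-known cell cycle genes, with earlier results of these data known though no level or fold change stands in the rule, and each was matched to a gene ID of the count table. All 50 of 50 were found among 49585 gene IDs, and all 50 passed the filter on low counts that left 20009 genes for testing. By role, 11 act at the replication origin and fork, 4 in nucleotide supply, 6 are cyclins or Cdk1, 4 are transcription factors, 7 are mitotic kinases or checkpoint proteins and 2 are partners of the anaphase-promoting complex. The other genes comprise 4 of the centromere and passenger complex, 8 spindle motors and bundlers, 2 cytokinesis genes and the pair Mki67 and Top2a. Counted by phase, 20 are G1/S genes and 30 are G2/M genes.

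RNA was sequenced from neoplastic cells, sorted by their EGFP signal, of 36 mouse lung tumours driven by EML4-ALK, a fusion of the microtubule-binding protein EML4 with the kinase ALK. There were 9 Variant 1 tumours with sgSetd2, 9 Variant 1 tumours with sgNeo, 9 Variant 3 tumours with sgSetd2 and 9 Variant 3 tumours with sgNeo. Variants of the fusion differ in how much of EML4 they keep. The guide sgSetd2 targets Setd2, which encodes a histone H3 lysine 36 methyltransferase, and sgNeo marks the Setd2-proficient tumours of the series. The sample titles also carry 12 codes, 3 in each group, with 3 tumours per code. What a code stands for (a mouse, a litter or something else) is not stated. Tumours with the same code were therefore added together and count as 1 unit, and each p-value reflects only how the codes of a group differ, which may be partly technical. How the fusion was made and which cells carried the guide is not given in the sources used here.

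A cell copies its DNA once per division. Origins are licensed in G1 by loading of the MCM helicase with the help of Cdc6 and Cdt1, and synthesis in S phase needs the clamp Pcna and a supply of deoxynucleotides. The G1/S genes are switched on by E2F factors, and the G2/M genes by a later wave in which MuvB, B-Myb and Foxm1 act through promoter elements called CHR and CCAAT boxes. Most cells of the adult lung, alveolar type 2 cells among them, are outside the cycle at any time, so the summed level of these genes in a tissue is widely used as a sign of how many cells are dividing.

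Promoters of 6 of the genes are shown because these genes carry the lowest p-values of their phase among the described genes that hold a searched motif. Each is the 300 bases from 250 before to 50 after the gene's start in RefSeq (GRCm38.p6), read 5′ to 3′ on the strand of the gene, with motif matches in capitals. Mcm7 lies at chr5:138171834-138172133 (minus strand; 1 of 2 starts), Cdc6 at chr11:98907901-98908200 (plus strand), Rrm2 at chr12:24708004-24708303 (plus strand), Bub1 at chr2:127831810-127832109 (minus strand), Cdk1 at chr10:69352863-69353162 (minus strand) and Cenpf at chr1:189688037-189688336 (minus strand).
Mcm7: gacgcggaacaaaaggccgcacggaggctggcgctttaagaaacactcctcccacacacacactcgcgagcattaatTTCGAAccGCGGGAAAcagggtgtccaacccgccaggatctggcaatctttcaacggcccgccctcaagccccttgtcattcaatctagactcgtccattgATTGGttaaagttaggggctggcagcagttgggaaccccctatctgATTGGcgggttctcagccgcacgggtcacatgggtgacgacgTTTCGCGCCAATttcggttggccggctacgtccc
Cdc6: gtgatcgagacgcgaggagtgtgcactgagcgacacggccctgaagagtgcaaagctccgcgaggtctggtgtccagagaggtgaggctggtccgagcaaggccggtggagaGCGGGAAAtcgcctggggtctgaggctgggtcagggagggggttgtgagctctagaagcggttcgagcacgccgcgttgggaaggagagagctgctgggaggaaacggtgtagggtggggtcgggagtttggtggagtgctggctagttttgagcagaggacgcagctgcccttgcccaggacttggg
Rrm2: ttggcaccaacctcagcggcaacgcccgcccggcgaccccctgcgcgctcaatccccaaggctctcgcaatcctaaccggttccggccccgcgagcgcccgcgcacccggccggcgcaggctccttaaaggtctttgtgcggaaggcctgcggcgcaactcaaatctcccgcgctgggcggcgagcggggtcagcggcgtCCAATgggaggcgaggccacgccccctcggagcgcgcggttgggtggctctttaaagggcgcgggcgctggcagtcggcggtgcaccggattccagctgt
Bub1: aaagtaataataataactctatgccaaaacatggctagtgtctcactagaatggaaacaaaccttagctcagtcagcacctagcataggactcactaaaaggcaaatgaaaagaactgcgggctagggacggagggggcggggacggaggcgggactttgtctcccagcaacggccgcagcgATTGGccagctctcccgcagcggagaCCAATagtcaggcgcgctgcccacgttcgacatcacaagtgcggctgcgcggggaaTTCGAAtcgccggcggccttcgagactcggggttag
Cdk1: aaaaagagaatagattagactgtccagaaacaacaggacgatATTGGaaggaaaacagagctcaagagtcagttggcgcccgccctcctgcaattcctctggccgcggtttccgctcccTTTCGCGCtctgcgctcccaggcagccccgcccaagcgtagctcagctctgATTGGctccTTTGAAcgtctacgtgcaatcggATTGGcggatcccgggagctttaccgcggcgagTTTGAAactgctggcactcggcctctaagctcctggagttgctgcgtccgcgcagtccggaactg
Cenpf: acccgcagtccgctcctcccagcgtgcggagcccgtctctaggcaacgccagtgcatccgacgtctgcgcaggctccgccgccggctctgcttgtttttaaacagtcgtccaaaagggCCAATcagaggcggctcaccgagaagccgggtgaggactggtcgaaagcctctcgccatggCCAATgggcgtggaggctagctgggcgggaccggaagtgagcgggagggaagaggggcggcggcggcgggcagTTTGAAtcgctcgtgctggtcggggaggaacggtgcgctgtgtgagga
The motifs were searched on both strands as exact letters. CHR was spelled TTTGAA or TTCGAA, of which TTCGAA is its own reverse complement, the CCAAT box CCAAT, and the E2F site TTTCCCGC, TTTCGCGC, TTTGCCGC or TTTGGCGC. In the window of Mcm7 the E2F letters TTTCGCGC start at base 17 after the gene's start and run into a CCAAT box that starts at base 24. Cdk1 held 2 CHR matches, 3 CCAAT boxes and 1 E2F site, while Cdc6 held 1 E2F site and Rrm2 1 CCAAT box.

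RefSeq windows were matched for 42 of the 50 genes, 17 G1/S and 25 G2/M; Ccne2, Ccna2, Gins2, Mcm4, Foxm1, Aurkb, Kif20a and Tpx2 had no entry. CHR letters stood in 20 of 25 G2/M promoters (80.0%) and in 4 of 17 G1/S promoters (23.5%), beside 21.7% of the 27025 mouse genes with a window. CCAAT boxes stood in 20 of 25 G2/M promoters (80.0%) and 10 of 17 G1/S promoters (58.8%), beside 41.1% of all genes. Both elements together stood in 18 of 25 G2/M promoters (72.0%), beside 9.7% of all genes. The E2F letters had the opposite bias, with 1 of 25 G2/M promoters (4.0%) and 6 of 17 G1/S promoters (35.3%), beside 2.6% of all genes. A match is a description of letters, not of a bound site. For CHR and CCAAT, genes with and without the motif had medians close to each other in Variant 1. The median log2 fold change of sgSetd2 over sgNeo was -1.38 with CHR (24 genes) and -1.44 without it (18 genes). It was -1.44 with CCAAT (30 genes) and -1.36 without it (12 genes). With the E2F letters it was -1.70 (7 genes), and without them -1.39 (35 genes). Of those 7 genes 6 are G1/S genes, a phase with a median of -1.01 over its 20 genes. The difference was not tested.

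The 36 libraries held 17.9 to 137.2 M counts (median 40.7 M, with M for the prefix mega), and the 12 summed codes 91.5 to 212.1 M. Sftpc, the surfactant gene that defines alveolar type 2 cells, was at 20900 to 161000 CPM (counts scaled to library size), and the epithelial marker Epcam at 276 to 857 CPM. Ptprc, a pan-leukocyte marker, was at 0 in 20 libraries and reached 3.6 CPM at most, and the T cell marker Cd3e was at 0 in 34. The 5 pan-leukocyte markers read, Ptprc among them, had a median sum of 0.307 to 1.06 CPM by group. Their sum reached 30.6 CPM in tumour 2 of CE479 (Variant 1 sgSetd2) and 19.1 CPM in tumour 1 of CE468 (Variant 1 sgNeo). Setd2 mRNA had a lowest, median and highest value of 27.7, 38.9 and 46.2 CPM in Variant 1 sgSetd2 tumours, against 44.1, 61.5 and 96.7 CPM in Variant 1 sgNeo tumours. In Variant 3 it had 28, 40.4 and 81.1 CPM in sgSetd2 tumours, against 39.5, 51.0 and 68.9 CPM in sgNeo tumours. The tumours overlapped in both variants, and an edited transcript need not be lost, so the mRNA is a limited check of the guide. Since the samples are bulk RNA, fewer cycling cells and less of these RNAs per cell cannot be told apart.

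Among themselves the 50 genes spanned a wide range of levels. Per kilobase of exon, and as a mean over the 12 codes, the highest levels were those of Pcna at 22.5, Cdc20 at 16.7, Ccnb2 at 11.4, Mcm6 at 9.69 and Mcm7 at 9 CPM per kb. The lowest were E2f8 at 0.299, Ttk at 0.530, Mybl2 at 0.659, Foxm1 at 0.882 and Gins2 at 0.904 CPM per kb. The lowest 5 thus held 3 of the 4 transcription factors, and origin and fork genes stood at both ends. Of 1800 values, 1 per gene and tumour, 24 were 0. Pcna and Ccnb1 have processed pseudogenes in the annotation that could share reads with them.

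In Variant 1, the sgSetd2 codes had lower levels of S, G2 and mitosis genes than the sgNeo codes. Of the 50 genes, 6 fell at an adjusted p under 0.05 (edgeR quasi-likelihood test, Benjamini-Hochberg over all genes tested), namely Ccna2, Bub1, Mcm7, Cdk1, Aurkb and Cdc6, where 0.72% of all genes tested were called lower. None was called higher. All 50 log2 fold changes were below 0, between -2.43 and -0.44, with a median of -1.41 beside -0.01 over all genes tested. An unadjusted p under 0.05 was reached by 47 of the 50 and by 3186 of the 20009 genes. In 46 of the 50 genes every sgSetd2 code lay under every sgNeo code, which held for 12.3% of all genes tested. The G2/M genes had a median of -1.52 with 4 of 30 called, and the G1/S genes a median of -1.01 with 2 of 20 called.

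**Figure D1:**
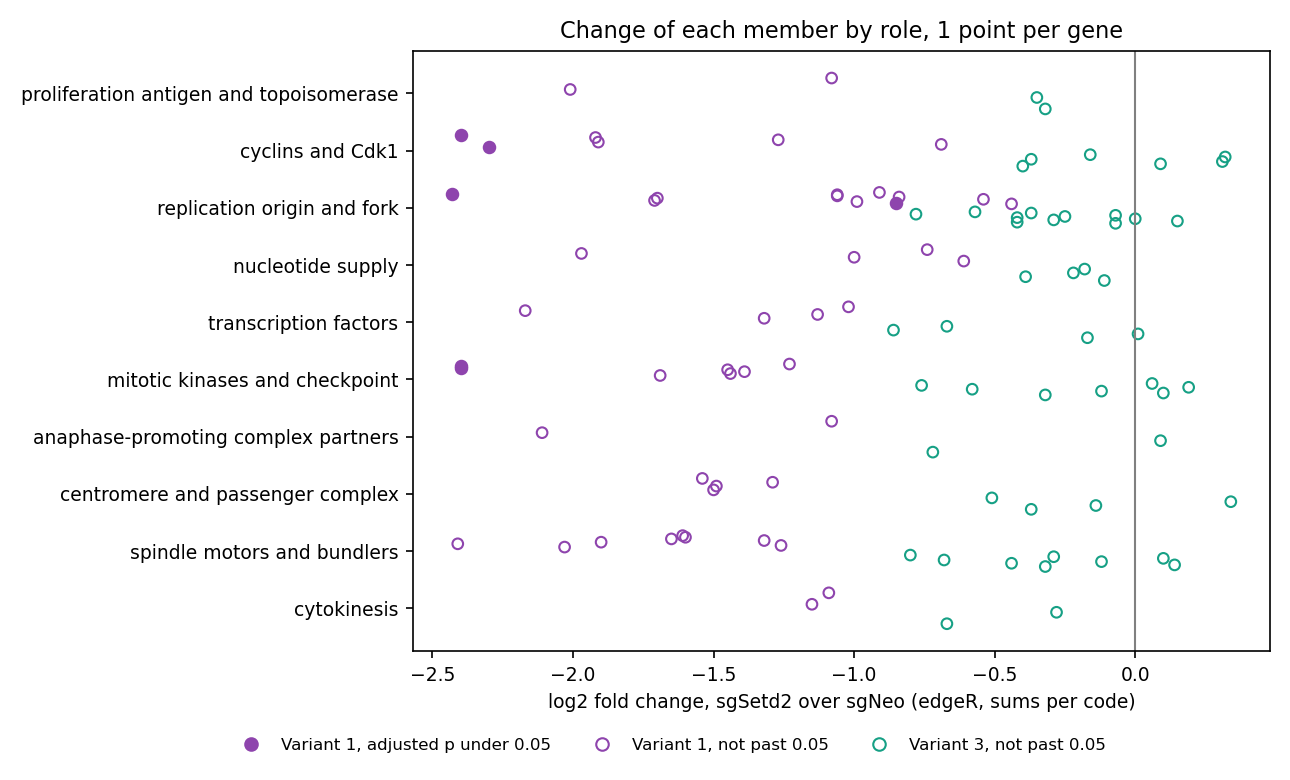
Log2 fold change of sgSetd2 over sgNeo (horizontal axis) for each of the 50 genes, grouped by role, in Variant 1 and in Variant 3 over summed codes; filled points passed an adjusted p of 0.05. All Variant 1 points lie left of 0, at -2.43 to -0.44, and the Variant 3 points lie between -0.86 and 0.34.

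Cyclins and Cdk1 had the lowest median of the roles in Variant 1, -1.92, and 2 of the 6 fell. Ccna2, the cyclin of S phase and G2, had 3.42, 4.50 and 2.67 CPM in the 3 sgSetd2 codes, against 20.4, 15.9 and 19.5 CPM in the 3 sgNeo codes. The groups did not overlap, and the difference on the log2 scale was -2.40 with an SE of 0.39 (adjusted p = 0.0195). Values after ± below are likewise SEs of log2 fold changes. Cdk1, the kinase that drives entry into mitosis, had 8.52, 13.2 and 5.64 CPM in sgSetd2 codes, against 35.0, 53.9 and 45.5 CPM in sgNeo codes. It too was separated, at -2.30 ± 0.48 (adjusted p = 0.0441). Ccne1, the cyclin of the G1/S step, overlapped between the groups, with 0.616 to 2.25 CPM in sgSetd2 codes, against 2.07 to 8.65 CPM in sgNeo codes. Tumour by tumour both called genes overlapped as well: Ccna2 had a lowest, median and highest value of 1.70, 3.38 and 7.03 CPM in sgSetd2 tumours, against 2.85, 10.2 and 35.3 CPM in sgNeo tumours. Cdk1 had 2.81, 9.19 and 17.7 CPM in sgSetd2 tumours, against 4.91, 27.5 and 90.5 CPM in sgNeo tumours.

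Of the 11 origin and fork genes 2 fell, and all 11 had an unadjusted p under 0.05. Cdc6, the loader of the MCM helicase, had 1.99, 3.07 and 1.32 CPM in sgSetd2 codes, against 14.0, 9.50 and 11 CPM in sgNeo codes (log2 fold change -2.43 ± 0.53, adjusted p = 0.0489). Mcm7, a helicase subunit, had 34.2, 32.3 and 24.1 CPM in sgSetd2 codes, against 62.3, 48.8 and 52.5 CPM in sgNeo codes. Its groups were apart by less than those of Cdc6, at -0.85 ± 0.16 (adjusted p = 0.0299), but its error was also smaller. The sliding clamp Pcna, the most abundant of the 50 genes per length, had 46.4, 49.4 and 45.3 CPM in sgSetd2 codes, against 71.1, 63.2 and 57.2 CPM in sgNeo codes. It had the smallest difference of the 50, -0.44 ± 0.13 (adjusted p = 0.122). The 6 helicase subunits were not equal: Mcm5 and Mcm3 had log2 fold changes of -1.71 and -1.70, and Mcm2, Mcm6 and Mcm4 had -0.84, -0.99 and -0.54.

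None of the 4 genes of nucleotide supply was called in Variant 1 by edgeR, although all 4 had an unadjusted p under 0.05. The inducible subunit of ribonucleotide reductase, Rrm2, had 7.72, 9.30 and 8.62 CPM in sgSetd2 codes, against 44.7, 24.8 and 30.7 CPM in sgNeo codes (log2 fold change -1.97 ± 0.47, adjusted p = 0.0654). Its stable partner Rrm1 had 36.9, 33.0 and 29.0 CPM in sgSetd2 codes, against 68.2, 39.5 and 57.4 CPM in sgNeo codes (-0.74 ± 0.21, adjusted p = 0.110). Thymidine kinase, Tk1, had 5.54, 6.57 and 5.35 CPM in sgSetd2 codes, against 10.9, 10.6 and 13.5 CPM in sgNeo codes (-1.0 ± 0.26, adjusted p = 0.0834). In each of these 3 genes the code values of the groups were separate. The transcription factors were low and imprecise. E2f8, a repressor of the E2F family, had 0.206, 0.975 and 0.454 CPM in sgSetd2 codes, against 4.22, 1.21 and 1.93 CPM in sgNeo codes (-2.17 ± 0.65, adjusted p = 0.129). Foxm1, an activator of G2/M genes, had 1.84, 5.28 and 3.27 CPM in sgSetd2 codes, against 9.25, 6.28 and 7.30 CPM in sgNeo codes (-1.13 ± 0.46, adjusted p = 0.247). None of the 4 factors passed the test.

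Among the 7 mitotic kinases and checkpoint genes, 2 fell in Variant 1. Bub1, a kinase of the spindle checkpoint, had 3.55, 4.49 and 3.64 CPM in sgSetd2 codes, against 18.2, 26.4 and 17.2 CPM in sgNeo codes (log2 fold change -2.40 ± 0.43, adjusted p = 0.0245). Aurkb, the kinase of the chromosomal passenger complex, had 1.96, 1.82 and 2.01 CPM in sgSetd2 codes, against 12.4, 7.71 and 10.4 CPM in sgNeo codes (-2.40 ± 0.51, adjusted p = 0.0470). The sgSetd2 codes lay close together in both genes and well under the sgNeo codes. Bub1b, another checkpoint protein and the most abundant of this role by CPM, had 7.80, 7.28 and 8.35 CPM in sgSetd2 codes, against 21.9, 17.6 and 24.5 CPM in sgNeo codes (-1.45 ± 0.48, adjusted p = 0.159). Its codes did not overlap either, but the test was not passed.

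The genes of the later steps of mitosis had similar differences in Variant 1, and none passed the test. Ube2c, the ubiquitin-conjugating enzyme of the anaphase-promoting complex, had 5.79, 8.87 and 5.65 CPM in sgSetd2 codes, against 23.1, 39.1 and 25.8 CPM in sgNeo codes (log2 fold change -2.11 ± 0.56, adjusted p = 0.0920). Its activator partner Cdc20 had 20.2, 20.7 and 14.5 CPM in sgSetd2 codes, against 28.3, 38.9 and 50.2 CPM in sgNeo codes (-1.08 ± 0.32, adjusted p = 0.121). Both were separate by code. Cenpf, a kinetochore protein, had 7.49, 7.32 and 4.21 CPM in sgSetd2 codes, against 17.4, 20.9 and 15.7 CPM in sgNeo codes (-1.50 ± 0.40, adjusted p = 0.0918). Birc5, or survivin, of the passenger complex had 9.59, 8.78 and 7.77 CPM in sgSetd2 codes, against 22.3, 24.1 and 29.4 CPM in sgNeo codes (-1.54 ± 0.45, adjusted p = 0.120). The 4 genes of the centromere and passenger complex had a median of -1.49.

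The 8 spindle motors and bundlers had a median log2 fold change of -1.63 in Variant 1, and all 8 had an unadjusted p under 0.05. Kif20a, a kinesin of the central spindle, had 5.67, 7.29 and 4.43 CPM in sgSetd2 codes, against 14.6, 18.9 and 21.2 CPM in sgNeo codes (-1.65 ± 0.41, adjusted p = 0.0775). Kif23, a kinesin of the midbody, had 17.0, 35.7 and 12.7 CPM in sgSetd2 codes, against 46.8, 70.3 and 46.2 CPM in sgNeo codes (-1.32 ± 0.36, adjusted p = 0.0982). Their codes did not overlap. Ect2, which activates the cleavage furrow, overlapped, with 9.09, 20 and 9.33 CPM in sgSetd2 codes, against 40.2, 18.8 and 26.2 CPM in sgNeo codes (-1.15 ± 0.41, adjusted p = 0.191). The DNA topoisomerase of mitotic chromosomes, Top2a, had 10, 15.3 and 7.56 CPM in sgSetd2 codes, against 55.0, 31.7 and 45.6 CPM in sgNeo codes (-2.01 ± 0.63, adjusted p = 0.142). Mki67, the proliferation antigen Ki-67, had 14.5, 18.3 and 11 CPM in sgSetd2 codes, against 33.2, 27.4 and 31.9 CPM in sgNeo codes (-1.08 ± 0.37, adjusted p = 0.176). Neither of these common markers of dividing cells passed, though both were separate by code.

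The Variant 1 calls rested on few libraries. No gene of the 50 was called when code CE475, CE483 or CE472 was left out, or tumour 1 of CE467, tumour 1 of CE468 or tumour 2 of CE472. With CE467, CE468 or tumour 3 of CE433 left out 1 was called, and over 48 fits, each lacking 1 code or tumour, the count ran from 0 to 10 and the median log2 fold change from -1.68 to -0.99. Ccna2 was called in 41 of the 48 fits, with a highest adjusted p of 0.108, and was lost in the 6 fits that called none and in that without tumour 3 of CE433. Mcm7 was called in 38 of the fits and Bub1 in 37, and both were also lost without CE467 or CE468. Cdk1 was called in 27, Aurkb in 24 and Cdc6 in 21. The count also depended on the test: DESeq2 on the same sums called 35 of the 50, and limma voom on the tumours with codes as random blocks called 0. Male codes, read from Y-linked transcripts, were 1 of 3 in Variant 1 sgSetd2 and 0 of 3 in Variant 1 sgNeo, and with sex as a covariate, chosen after seeing the data, 1 of the 50 was called.

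The sgNeo side of the Variant 1 comparison held 3 tumours with high levels of nearly all 50 genes, 1 in each code. As a mean of log2(CPM + 1) over the 50 genes, tumour 2 of CE472 was at 5.04, tumour 1 of CE467 at 4.90 and tumour 1 of CE468 at 4.42. The other 6 sgNeo tumours of Variant 1 lay between 1.99 and 3.87, and the 9 sgSetd2 tumours between 2.20 and 3.31, with medians of 3.00 for sgSetd2 and 3.53 for sgNeo. Of the other 6, 4 lay within or under the range of the sgSetd2 tumours, and the remaining ones were above it at 3.53 and 3.87. Tumour 2 of CE472 was among the highest 9 of the 36 tumours in 50 genes, tumour 1 of CE467 in 49 and tumour 1 of CE468 in 44, while the sgSetd2 tumours of Variant 1 were so in 0 to 7 genes. For Top2a the high tumours had 92.7, 90.2 and 42.9 CPM, and for Ccna2 35.3, 32.8 and 20.9 CPM.

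**Figure D2:**
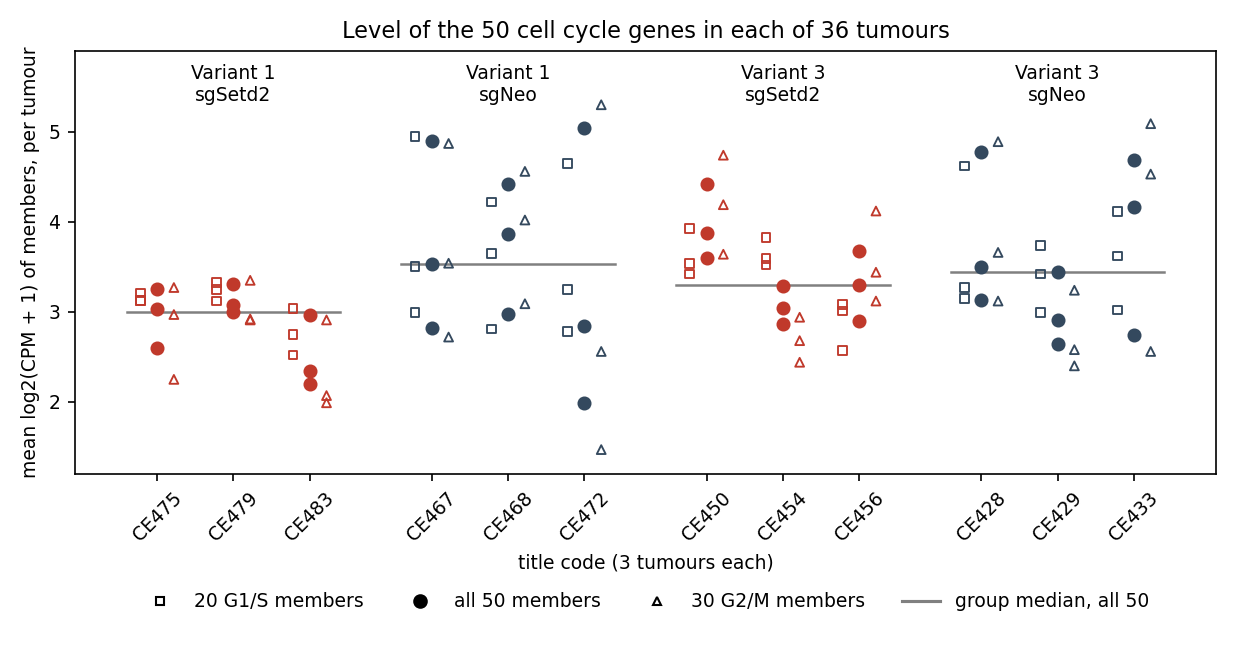
Mean level per tumour, as log2(CPM + 1) on the vertical axis, of all 50 genes (circles), the 20 G1/S genes (squares) and the 30 G2/M genes (triangles) in the 36 tumours ordered by group and code, with the group median of the circles as a grey line. The circles of Variant 1 sgSetd2 stay between 2.20 and 3.31, and those of Variant 1 sgNeo run from 1.99 to 5.04.

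Without those 3 tumours the Variant 1 difference was smaller. None of the 50 genes was called by edgeR, 3 had an unadjusted p under 0.05, 41 of 50 were below 0, and the median log2 fold change was -0.34, against -1.41 with them. Ccna2 was then at -1.20 (adjusted p = 0.315), Cdc6 at -1.45 (0.363), Bub1 at -1.08 (0.506), Cdk1 at -1.0 (0.485), Aurkb at -0.97 (0.546) and Mcm7 at -0.20 (0.713), each an adjusted p of edgeR. Rrm1 and Ect2 changed sign, to 0.06 and 0.25. The tumours were left out because they were high in these genes, which pulls the difference toward 0. Leaving out the highest tumour of every one of the 12 codes, which is also a choice by outcome and lowers a group more the wider its tumours spread, gave 0 calls, 5 genes at an unadjusted p under 0.05 and a median of -0.55. Taking the mean or the median over the 3 tumours of a code in place of their sum gave 0 calls with limma and medians of -0.87 and -0.73. A sum gives a deep or high tumour more weight than these do. The high tumours were the deepest of their code in CE467, at 40.7 M counts beside 24 and 26.7 M, and in CE468, at 67.3 M beside 26.9 and 21.4 M, and that of CE472 had 60.9 M beside 17.9 and 77.1 M. With tumours thinned to equal totals within a code, 0 of the 50 genes were called.

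**Figure D3:**
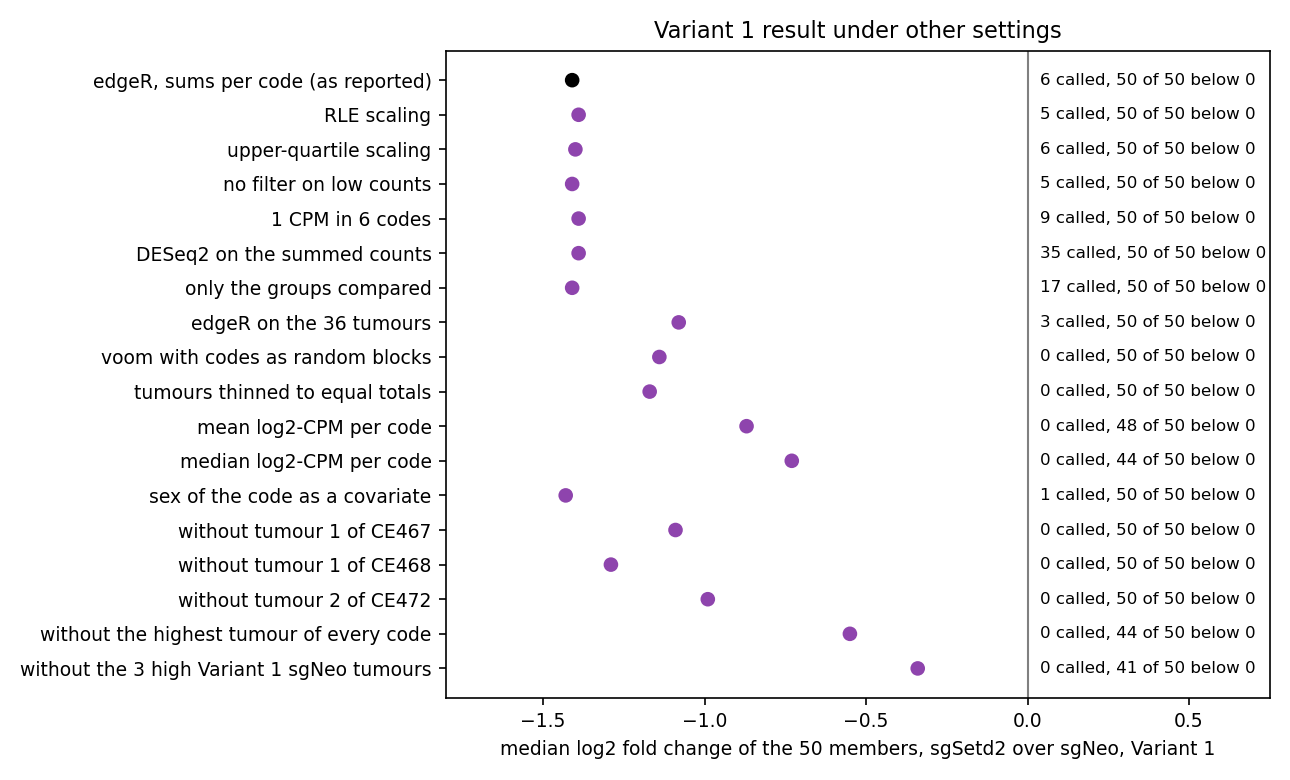
Log2 fold change of sgSetd2 over sgNeo in Variant 1 (horizontal axis) as the median over the 50 genes under each setting (vertical axis, 1 point per setting), with the number called and the number below 0 printed at the right. The median is -1.41 for summed counts, -0.87 for the mean and -0.73 for the median over tumours, and -0.34 without the 3 high sgNeo tumours, where 41 of 50 genes are below 0.

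Markers of other cells were also read in these tumours. The summed level of 10 macrophage markers, of which 7 or 8 had a median under 1 CPM in each group, was 132 to 246 CPM in the 3 high tumours and 201 to 363 CPM in the other 6 sgNeo tumours of Variant 1. The 6 alveolar type 1 markers summed to 1130 to 1770 CPM in the high tumours and 2180 to 2980 CPM in the other 6. The 14 alveolar type 2 and epithelial markers summed to 32600 to 139000 CPM in the high tumours and 75100 to 230000 CPM in the other 6. The 7 fibroblast markers summed to 402, 22.4 and 0.536 CPM in the high tumours and to at most 30.4 CPM in the other 6. Their median sum was 24.1 CPM in Variant 1 sgSetd2, with a highest of 183 CPM, and 5.91 CPM in Variant 1 sgNeo. In Variant 3 it was 43 CPM in sgSetd2 and 11 CPM in sgNeo. The 6 T cell markers were all at 0 in the high tumours. The 5 pan-leukocyte markers summed to 0.119 to 19.1 CPM in the high tumours and 0 to 5.43 CPM in the other 6. By group, macrophage markers summed to 260 to 404 CPM in Variant 1 sgSetd2 and 132 to 363 CPM in Variant 1 sgNeo, and club and ciliated cell markers to 165 to 848 CPM in Variant 1 sgSetd2 and 16.8 to 212 CPM in Variant 1 sgNeo. In Variant 3, macrophage markers summed to 262 to 403 CPM in sgSetd2 and 174 to 287 CPM in sgNeo, and club and ciliated cell markers to 49.7 to 347 CPM in sgSetd2 and 10.6 to 27.3 CPM in sgNeo. The 4 neutrophil markers there had a median sum of 7.37 CPM in sgSetd2 and 0.215 CPM in sgNeo, and the 4 B cell markers 4.71 CPM in sgSetd2 and 12.4 CPM in sgNeo. These sums rest on few genes. Of the neutrophil markers, 3 in sgSetd2 and 4 in sgNeo had a median under 1 CPM. Of the B cell markers, 3 had a median under 1 CPM and 2 had no count in each of the Variant 3 groups. The part of these markers in the results was not tested.

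In Variant 3, no difference between sgSetd2 and sgNeo was detected for the cell cycle genes. None of the 50 genes was called by edgeR or by DESeq2, where edgeR called 0.615% of all genes tested lower. Mcm7 alone of the 50 had an unadjusted p under 0.05 (log2 fold change -0.42 ± 0.16, adjusted p = 0.234), beside 3020 of all 20009 genes. Mcm7 had 32.2, 32.4 and 31.0 CPM in sgSetd2 codes, against 48.0, 44.4 and 35.8 CPM in sgNeo codes. Of the 50 fold changes 38 were below 0 and 12 above, the median was -0.28 beside 0.02 over all genes, and the range was -0.86 for E2f8 to 0.34 for the centromeric histone Cenpa. The median turned to 0.09 without the highest tumour of every code, and over the fits with 1 code or tumour left out it ran from -0.57 to 0.02. In 3 of the 50 genes every sgSetd2 code lay under every sgNeo code, where 8.96% of all genes did so.

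The genes called in Variant 1 overlapped between the guides in Variant 3, apart from Mcm7. Ccna2 had 16.3, 5.21 and 8.29 CPM in sgSetd2 codes, against 11.7, 8.01 and 13.5 CPM in sgNeo codes (-0.16, adjusted p = 0.907). Bub1 had 8.61, 3.52 and 10.2 CPM in sgSetd2 codes, against 9.43, 3.44 and 6.72 CPM in sgNeo codes (0.19, adjusted p = 0.894). In both genes the lowest code was CE454 in sgSetd2 and CE429 in sgNeo. The same codes were lowest for Top2a, with 42.7, 9.37 and 12.7 CPM in sgSetd2 codes, against 46.2, 9.11 and 25.7 CPM in sgNeo codes. For Top2a CE456, at 12.7 CPM, was nearly as low as CE454. Cdk1 had 34.5, 12.4 and 18 CPM in sgSetd2 codes, against 40.5, 12.8 and 32.2 CPM in sgNeo codes (-0.40, adjusted p = 0.763). Aurkb had 9.07, 2.02 and 3.61 CPM in sgSetd2 codes, against 11.2, 4.51 and 9.26 CPM in sgNeo codes (-0.76, adjusted p = 0.508). Cdc6 had 4.62, 8.57 and 2.72 CPM in sgSetd2 codes, against 11.8, 4.56 and 4.14 CPM in sgNeo codes (-0.37, adjusted p = 0.812), with CE454 the highest sgSetd2 code here.

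Averaged over both variants, 9 of the 50 genes fell with sgSetd2, where 3.63% of all genes tested were called lower, and all 50 were below 0 with a median of -0.82 beside 0.01 over all genes. They were Mcm7 (log2 fold change -0.64 ± 0.11, adjusted p = 0.00774), Ccna2 (-1.28 ± 0.27, 0.0159), Aurkb (-1.58 ± 0.35, 0.0217), Cdk1 (-1.35 ± 0.33, 0.0321), Kif23 (-1.0 ± 0.25, 0.0357), Cdc6 (-1.40 ± 0.36, 0.0387), Tk1 (-0.70 ± 0.18, 0.0394), Bub1 (-1.11 ± 0.29, 0.0432) and Ube2c (-1.42 ± 0.39, 0.0492). Over 48 fits, each lacking 1 code or tumour, Mcm7 was called in 46 (lost without tumour 1 of CE468 or tumour 2 of CE472), Ccna2 in 44 (lost without those, tumour 1 of CE467 or tumour 2 of CE429) and Aurkb in 42, while Bub1 was called in 24 and Ube2c in 19. None was called without tumour 2 of CE472, and 17 were called without tumour 1 of CE450. Without the 3 high Variant 1 sgNeo tumours the count was 0, with 5 genes at an unadjusted p under 0.05 and a median of -0.25.

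Between the variants, no cell cycle gene passed the edgeR test with either guide. In sgNeo codes, Variant 3 minus Variant 1 gave 4 of the 50 genes an unadjusted p under 0.05, beside 2080 of all 20009 genes. They were led by Bub1 (-1.66 ± 0.42, adjusted p = 0.284). Of the 50 values 47 were below 0, with a median of -0.40. That direction depended on the weight of the tumours: the median was 0.15 with the median and 0.00 with the mean over the tumours of a code. It was 0.62 without the 3 high Variant 1 sgNeo tumours and 0.08 without the highest tumour of every code. Both settings leave out tumours by outcome. The first takes high tumours from the Variant 1 side alone, which by itself pushes the median up. With any 1 code or tumour left out, the median stayed below 0. DESeq2 called 1 of the 50. Of all genes tested, edgeR called 0.005%. In 13 of the 50 genes every Variant 3 code lay under every Variant 1 code, beside 8.21% of all genes. In sgSetd2 codes all 50 values were above 0, with a median of 0.91. An unadjusted p under 0.05 was reached by 17 of the 50, beside 1940 of all 20009 genes. Ccna2 had 16.3, 5.21 and 8.29 CPM in Variant 3 sgSetd2 codes, against 3.42, 4.50 and 2.67 CPM in Variant 1 sgSetd2 codes, with the smallest p (1.49 ± 0.38, adjusted p = 0.194). DESeq2 again called 1, edgeR called 0.13% of all genes, and in 6 of the 50 genes every Variant 3 code lay over every Variant 1 code, beside 8.62% of all genes.

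The guide effect was not shown to differ between the variants. The interaction, which is the change in Variant 3 minus the change in Variant 1, was above 0 for all 50 genes with a median of 1.22. Of the 50, 19 had an unadjusted p under 0.05, beside 1200 of all 20009 genes. None passed the adjusted threshold in edgeR, DESeq2 called 2 of the 50, and edgeR called 0% of all genes tested. The smallest adjusted p were those of Bub1 (2.59 ± 0.59, 0.525) and Ccna2 (2.24 ± 0.53, 0.548). The interaction shares its samples with both of the contrasts it is made from. Without the 3 high Variant 1 sgNeo tumours its median was 0.16, with 30 of 50 values above 0. That choice by outcome by itself pulls the interaction down.

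Tumours with high levels were found in 3 of the 4 groups. A mean over 4 on the log2(CPM + 1) scale was reached by tumour 1 of CE450 in Variant 3 sgSetd2, at 4.42, by tumour 2 of CE428 and tumours 1 and 2 of CE433 in Variant 3 sgNeo, at 4.78, 4.69 and 4.17, and by the 3 Variant 1 sgNeo tumours. No Variant 1 sgSetd2 tumour reached it. The lowest, median and highest means in Variant 3 were 2.87, 3.30 and 4.42 in sgSetd2 tumours, against 2.64, 3.44 and 4.78 in sgNeo tumours. Tumours of one code could stand at both ends: in CE472 tumour 2 was the highest of all 36, and tumour 4, at 1.99, the lowest. Mki67 was at 57.1 CPM in that tumour 2 and at 0.424 CPM in that tumour 4. In Variant 3 sgNeo, Setd2 mRNA was at 39.5, 41.1 and 39.5 CPM in the 3 high tumours and at 50.6 to 68.9 CPM in the other 6. In Variant 1 sgNeo it was at 69.5, 58.8 and 61.5 CPM in the high tumours of CE467, CE468 and CE472, within the range of 44.1 to 96.7 CPM of the other 6.

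**Figure D4:**
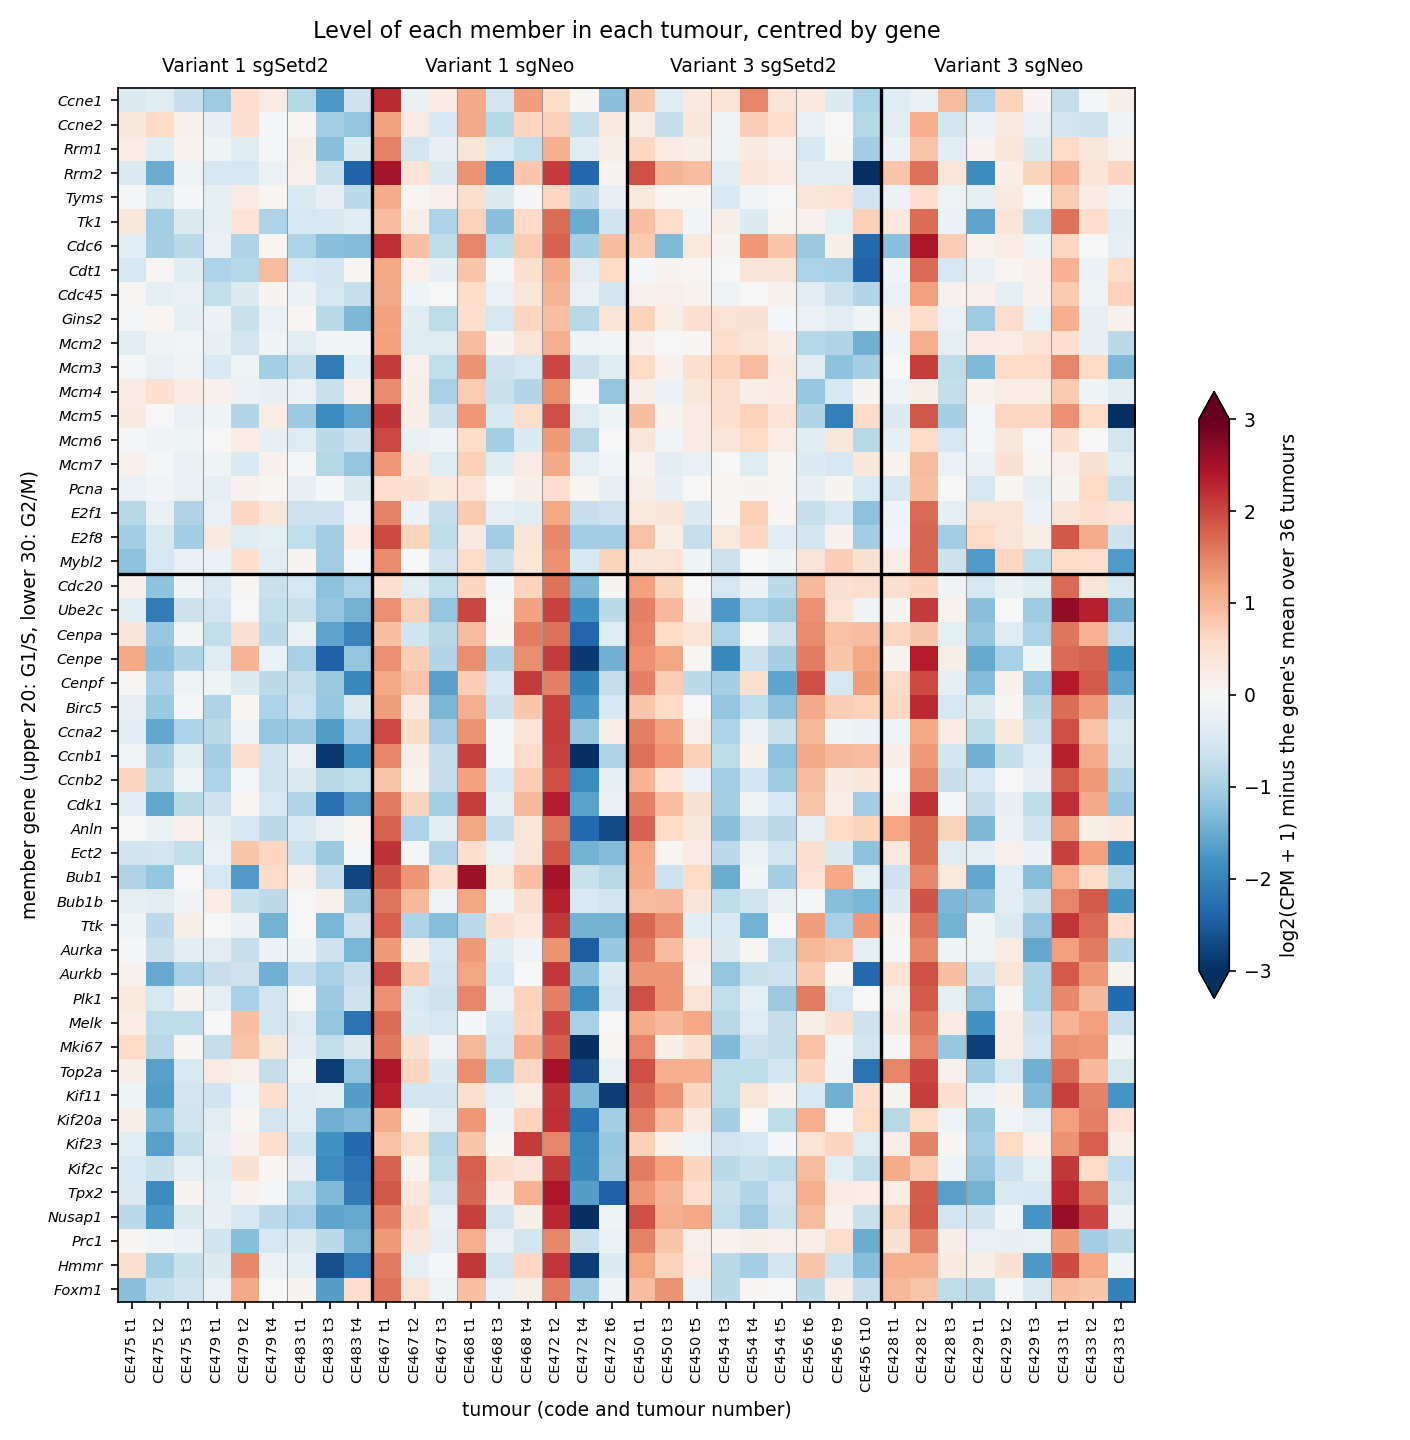
Level of each of the 50 genes (rows, 20 G1/S genes above and 30 G2/M genes below) in each of the 36 tumours (columns, by group and code), as log2(CPM + 1) minus the gene's mean over the tumours. Tumour 2 of CE472 and tumour 1 of CE467 are red (above the gene's mean) for nearly all genes, and tumour 3 of CE483 and tumour 4 of CE472 are blue (below it) for most.

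The G1/S and G2/M genes did not move in step in every tumour. Among the high tumours, the mean log2(CPM + 1) of G1/S genes and of G2/M genes was 4.95 and 4.87 in tumour 1 of CE467, but 4.11 and 5.09 in tumour 1 of CE433 and 3.93 and 4.74 in tumour 1 of CE450. Among the low ones it was 2.78 and 1.47 in tumour 4 of CE472. The 3 tumours of CE454 all had more of the G1/S genes, at 3.52, 3.83 and 3.59 for G1/S and 2.44, 2.94 and 2.68 for G2/M genes, and tumour 6 of CE456 had the opposite, 3.01 and 4.12. The phases are represented by different genes, so only shifts between tumours can be read from these pairs.

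The spread between tumours of a code was itself measured, as the standard deviation of log2(CPM + 1) over the 3 tumours of a code, averaged over the 3 codes of a group. The median over the 50 genes was 0.48 in Variant 1 sgSetd2, against 1.24 in Variant 1 sgNeo, and 0.50 in Variant 3 sgSetd2, against 0.87 in Variant 3 sgNeo. Over all genes tested the medians were 0.23, 0.32, 0.23 and 0.30 in the same order. The spread between codes of a group was taken on means of 3 tumours, which vary less than single tumours even where codes do not differ. It was smaller than the spread within codes in 50 of 50 genes, with medians of 0.55 and 0.93. This also held for 90.7% of all genes, with medians of 0.23 and 0.34, so nothing is read from the order. Spread within codes was widest for the kinetochore motor Cenpe at 1.29, Rrm2 at 1.27, Cenpf and the spindle motor Kif11 at 1.24 each and Top2a at 1.23. It was narrowest for Pcna at 0.34, Tyms at 0.42, Cdc45 at 0.47, Mcm2 at 0.48 and Mcm7 at 0.50, all of them G1/S genes. Mcm7, with the smallest error of the called genes in the test of levels, was thus among the least variable.

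**Figure D5:**
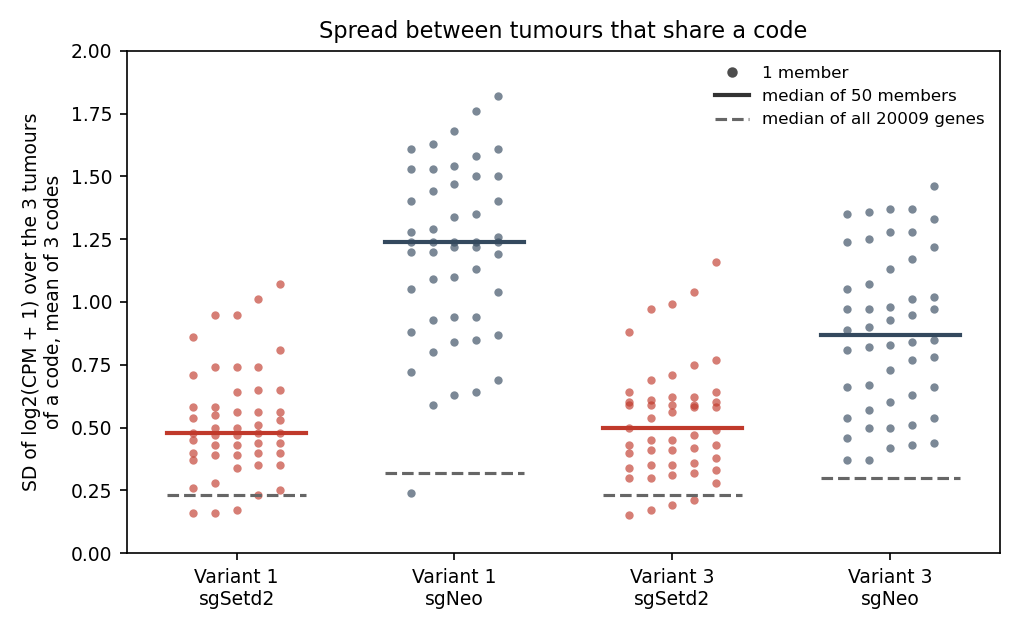
Standard deviation of log2(CPM + 1) over the 3 tumours of a code, averaged over the 3 codes of a group (vertical axis), for each of the 50 genes in the 4 groups; each point is 1 gene, solid lines are medians over the 50 genes and dashed lines medians over all 20009 genes. The medians over the 50 genes are 0.48 in Variant 1 sgSetd2, 1.24 in Variant 1 sgNeo, 0.50 in Variant 3 sgSetd2 and 0.87 in Variant 3 sgNeo.

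A test of this spread with limma, adjusted over all genes, called 1 of the 50 in Variant 1, beside 0.4% of all genes. It was Mcm6, a helicase subunit, at 0.16 in sgSetd2 and 1.04 in sgNeo (difference -0.87, adjusted p = 0.0344). Its tumours had a lowest, median and highest level of 21.5, 33.9 and 43.7 CPM in sgSetd2, against 17.9, 34 and 151 CPM in sgNeo, so the medians were close and the ranges were not. All 50 differences were below 0 with a median of -0.75, and 30 had an unadjusted p under 0.05, where over all genes the median was -0.09, 71.4% were below 0 and 2543 of 20009 had such a p. In Variant 3 limma called 0 of the 50, beside 0% of all genes. An unadjusted p under 0.05 was reached by 8 of the 50, beside 1659 of all 20009 genes. Of the 50 differences 45 were below 0, with a median of -0.35, beside -0.06 and 66.3% below 0 for all genes.

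Averaged over the variants, 2 of the 50 genes had a smaller spread in sgSetd2, beside 0.755% of all genes: Mcm3 at 0.41 in sgSetd2 and 1.33 in sgNeo (difference -0.92, adjusted p = 0.0157) and Mybl2, the B-Myb factor, at 0.40 in sgSetd2 and 1.05 in sgNeo (-0.65, adjusted p = 0.0174). Mybl2 was near the floor in Variant 3, with a lowest, median and highest level of 1.08, 3.23 and 4.42 CPM in sgSetd2 tumours, against 0, 2.77 and 9.9 CPM in sgNeo tumours. At such levels the spread depends on the 1 added before the log. All 50 differences were below 0 with a median of -0.49, beside -0.08 and 74.3% below 0 for all genes. Mcm6 was not called in Variant 1 without CE475, CE479, CE483, CE467, CE450 or CE454 in the fit, when 0 of the 50 passed, and 2 or 3 passed without CE429, CE468 or CE433. The averaged count was 0 without CE450 or CE454 and 14 without CE429, while in Variant 3 it was 4 without CE429.

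Other genes of the same processes were also read in Variant 1, where 0.72% of all genes tested were called lower. Of 34 other replication genes 3 fell, with a median log2 fold change of -1.07: Lig1, the DNA ligase of the lagging strand (-1.49, adjusted p = 0.0142), the primase subunit Prim1 (-1.27, adjusted p = 0.0160) and the checkpoint adaptor Clspn (-3.17, adjusted p = 0.0351). Of 58 other mitosis genes 10 fell, with a median of -1.52, led by Hjurp, the chaperone of Cenpa (-0.99, adjusted p = 0.0115), Racgap1 of the central spindle (-1.61, adjusted p = 0.0195) and the condensin subunit Ncapg2 (-1.74, adjusted p = 0.0243). Lig1 had 6.97, 8.24 and 5.53 CPM in sgSetd2 codes, against 23.0, 16.5 and 18.8 CPM in sgNeo codes, with no overlap. Another list held 21 genes, namely pocket proteins, parts and partners of the DREAM complex, Cdk inhibitors and others such as Ccng2. Some of them hold cell cycle genes down in resting cells, but not all act that way. None of the 21 was called by edgeR, and the median was 0.07. An unadjusted p under 0.05 was reached by 7 of the 21, beside 3186 of all 20009 genes. Without the 3 high sgNeo tumours the called counts in Variant 1 were 0 for replication and 0 for mitosis, with 2 and 8 genes at an unadjusted p under 0.05 and medians of -0.33 and -0.45. With 1 code or tumour left out, the Variant 1 call held in 43 of 48 fits for Lig1, 41 for Prim1, 33 for Clspn, 44 for Hjurp, 42 for Racgap1 and 37 for Ncapg2.

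Hjurp also fell in Variant 3, the single mitosis gene of the 58 to do so, where 0.615% of all genes tested were called lower. It had 37.3, 44.8 and 38.4 CPM in Variant 1 sgSetd2 codes, against 73.1, 89.9 and 76.9 CPM in Variant 1 sgNeo codes. In Variant 3 it had 50, 52.6 and 58.7 CPM in sgSetd2 codes, against 94.4, 75.1 and 93.7 CPM in sgNeo codes (-0.71, adjusted p = 0.0279, called in 38 of 48 fits with 1 code or tumour left out). Both pairs of groups were separate. Averaged over the variants it was at -0.85 (adjusted p = 0.000977), was called in 48 of 48 such fits, and without the 3 high tumours was at -0.74 (adjusted p = 0.0042). In the average, 12 of 34 replication and 16 of 58 mitosis genes fell, where 3.63% of all genes tested were called lower, and 1 and 2 did so without the 3 high tumours. E2f4, an E2F factor of the DREAM complex, rose in the average (0.39, adjusted p = 0.0233), with Ccng2 (0.51, adjusted p = 0.0345), where 3.72% of all genes were called higher. E2f4 had 58.4, 58.3 and 58.4 CPM in Variant 1 sgSetd2 codes, against 52.3, 42.4 and 39.5 CPM in Variant 1 sgNeo codes. In Variant 3 it had 60.5, 56 and 58.3 CPM in sgSetd2 codes, against 42.7, 49.6 and 40.8 CPM in sgNeo codes, again with no overlap. Without the 3 high tumours E2f4 was at 0.37 (adjusted p = 0.0358) and Ccng2 at 0.38 (adjusted p = 0.199).

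Upstream of S phase, Cdk4, the kinase that D cyclins activate, fell in Variant 1, with 101, 116 and 85.2 CPM in sgSetd2 codes, against 174, 195 and 165 CPM in sgNeo codes (-0.82, adjusted p = 0.0273). Ccnd2 fell in Variant 3, with 0.0371, 0.383 and 0.236 CPM in sgSetd2 codes, against 4.73, 6.84 and 7.28 CPM in sgNeo codes (-4.83, adjusted p = 0.0293). The groups were separate in both cases. Without the 3 high Variant 1 sgNeo tumours Cdk4 was at -0.21 in Variant 1 (edgeR adjusted p = 0.725). In the average over variants without them, Cdk4 was at -0.35 (edgeR adjusted p = 0.144) and Ccnd2 at -3.07 (edgeR adjusted p = 0.0237). With 1 code or tumour left out, the call held in 36 of 48 fits for Cdk4 in Variant 1 and in 39 for Ccnd2 in Variant 3. Averaged over the variants both genes fell, where 3.63% of all genes tested were called lower, and each call held in 47 of 48 fits.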

How the data were processed

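RNA was isolated with a PicoPure kit and libraries were made with a SMART-Seq kit and sequenced in pairs, per the labels' protocols. The authors' deposited file is a single matrix of unnormalized counts, genes by 36 tumours. STAR 2.5.3a, R 4.2 and DESeq2 1.38.3 are named in the submitters' processing notes. How reads were assigned to genes, with or without strand, on which genome build and annotation, is not given in the sources used here. The kit does not mark strand, so reads of overlapping and antisense genes cannot be told apart, and near-identical copies may share reads. Gene IDs, version digits aside, were matched to GENCODE mouse release M21 (GRCm38), which named 49326 of 49585 and gave exon lengths. No column lacked a sample, and no 2 libraries were identical.

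Tumours that share a code were added together. The 12 codes were fitted together in edgeR 4.0.16 (R 4.3.3) after filterByExpr, with TMM scaling, glmQLFit and glmQLFTest, and p-values were adjusted by Benjamini-Hochberg over 20009 genes at 0.05. As edgeR reports no SE, it was taken as the size of the log2 fold change divided by the root of the F statistic. CPM used TMM-scaled totals. Spread was tested in limma 3.58.1 on the standard deviation of log2(CPM + 1) over tumours of a code. Simulated data with 200 changed genes, run on 19310 genes for the Variant 1 contrast, gave back 28% of 2-fold and 51% of 4-fold changes with 2 false calls. For spread, on 20009 genes, 30.5% came back with 3 false calls. Alternatives included DESeq2 1.42.0, other scalings and filters, thinned libraries, other weights of tumours, and each code or tumour left out.

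The genes, the lists and most alternatives were chosen with earlier results of these data known. In each role the gene of highest CPM, that of smallest p in Variant 1 and every gene past the threshold are described, and up to 3 called genes of each further list and contrast. Ccne1, Mki67, Tyms, Cdc45, Cenpa, Cenpe, Kif11, Mybl2, Ttk, Gins2, Ccnb2 and the MCM subunits other than Mcm7 were named after their values were seen. Leaving out tumours from the further lists was also chosen after seeing the data. Count intervals were not computed, since spread between codes exceeds counting error at these depths.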

Additional observations from a re-analysis of the deposited data

Results flagged for a closer look

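Of 88 groups of 9 tumours examined, 3 had a lowest tumour set apart from the others by Dixon's 95% criterion, where chance alone gives about 1 in 20 groups. The tumours of a group are not independent, since 3 share a code. On the log2(CPM + 1) scale, Rrm1 in Variant 1 sgSetd2 was at 4.01 in tumour 3 of CE483 and at 4.86 in the next tumour, a gap of 0.571 of the group's range. Rrm2 in Variant 3 sgSetd2 was at 0.00 in tumour 10 of CE456, which had no count, and at 3.44 in the next tumour, a gap of 0.607 of the range. Rrm2 in Variant 3 sgNeo was at 1.85 in tumour 1 of CE429 and at 3.95 in the next tumour, a gap of 0.592 of the range. These are fewer than that share of the 88 groups would give, so nothing is read from which genes they are. No difference of the guide effect between the variants passed the edgeR test for any of the 50 genes.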

How the results depend on the processing

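For the 50 genes, RLE and upper-quartile scaling moved no count of calls past 1.5 times and no direction. In Variant 1 the called count of 6 became 35 with DESeq2, 17 with only the compared groups in the fit, 3 with the 36 tumours as units, 1 with sex of the code as a covariate, and 0 with voom blocks, the mean or median log2-CPM per code, tumours thinned to equal totals, without the 3 high sgNeo tumours and without the highest tumour of every code. The Variant 1 median of -1.41 became -0.87 (mean), -0.73 (median), -0.34 (without the 3) and -0.55 (without the highest). Averaged over variants, 9 calls became 24 with DESeq2, 17 with a filter of 1 CPM in 6 codes, 5 with no filter, 4 with sex, 2 with voom, 1 with the mean, 1 when thinned, and 0 with the median, without the 3 and without the highest. The averaged median became -0.42 (median log2-CPM), -0.25 (without the 3) and -0.19 (without the highest). The Variant 3 guide median without the highest tumour of every code was 0.09. For Variant 3 minus Variant 1 in sgNeo DESeq2 called 1, and the median became 0.00 (mean), 0.15 (median), 0.62 (without the 3) and 0.08 (without the highest). In sgSetd2 DESeq2 called 1. For the interaction DESeq2 called 2, and the median became 0.58 (mean), 0.51 (median), 0.16 (without the 3) and 0.66 (without the highest). Rrm1 in Variant 1 reversed to 0.03 (median) and 0.06 (without the 3), Ect2 to 0.12 (median), 0.25 (without the 3) and 0.15 (without the highest), and Tk1 in the average to 0.07 (without the highest). For spread averaged over variants 1 gene was called on log2(CPM + 0.1). The cause was not tested.

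With 1 code or tumour left out, Variant 1 calls ran from 0 to 10 (medians -1.68 to -0.99), averaged calls from 0 to 17 (-0.98 to -0.62) and Variant 3 calls stayed at 0 (-0.57 to 0.02). Between variants the medians ran from -0.66 to -0.14 in sgNeo and 0.48 to 0.95 in sgSetd2, and for the interaction from 0.80 to 1.56, with 0 calls each. Spread calls ran from 0 to 3 in Variant 1, 0 to 4 in Variant 3 and 0 to 14 in the average. A left-out code leaves a group with 2, whose spread is pooled over groups.

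No paired analysis was possible because each code belongs to 1 group and tumour numbers name tumours within a code. With tumours thinned to equal totals, none of the described cell cycle genes was called in Variant 1. Thinning lowers the depth and also evens the weight of the tumours in a sum, so this setting cannot separate them. The mean and the median log2-CPM per code, which keep the depth, gave no calls either. The part of depth in the calls was not tested. There were 3 codes per group, tumours of a code differed widely, and the labels do not give the nature of a code; the part of each in the low counts was not tested.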
